A study of Homo sapiens with 16 samples.

Results

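The first 9 h of treatment with the HER2 kinase inhibitor CP724,714 were examined by setting the arrays of 6 and 9 h (2 arrays) against those of 0 and 3 h (2 arrays), which are 4 of the 16 arrays of the series. The cells, MCF10HER2, stably over express HER2 (gene symbol ERBB2) and derive from MCF10A, an immortal human line of nontransformed mammary epithelium. Parallel cultures received 1 µM CP724,714 in fresh serum-free medium with EGF and hydrocortisone and without insulin, and RNA was taken every 3 h. The 0 h culture was the only untreated one, so the 0 and 3 h pair joins the untreated culture with 3 h of treatment, and the 6 and 9 h pair holds treated cultures. All cultures shared the HER2 transgene. Medium was renewed when treatment began and no later untreated culture was analysed here, so time after the medium change and time in inhibitor cannot be told apart. Each time point had 1 array, and the 2 arrays of a pair are successive time points and not replicates, so the spread within a pair includes any change between its time points. The comparison asks which genes moved early, between 3 and 6 h, and held that position at 9 h.

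HER2 belongs to the ERBB family of receptor tyrosine kinases and signals mainly through its partner receptors to the RAS-MAPK and PI3K-AKT-mTOR pathways. Downstream of these pathways are transcription factors that set the supply of building blocks in a growing cell. SREBP factors drive the genes of sterol and fatty acid synthesis, and ATF4 drives genes of amino acid synthesis, amino acid transport and tRNA charging. The unfolded protein response, through XBP1 and ATF6, sets the chaperones of the endoplasmic reticulum, where secreted and membrane proteins are folded.

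A probe was kept when its deposited detection p-value was under 0.05 on at least 2 of the 4 arrays. This kept 11171 probes of 10556 genes. Such a p-value is meant to set a probe against the negative controls of its own array, but some bright probes missed it. The brighter ATF3 probe, at normalized log2 signals of 11.26, 11.29, 9.43 and 8.71 at 0, 3, 6 and 9 h, was detected on none of the 4 arrays. Its difference of −2.20 is therefore left out of all counts below. An ACSS2 probe at 12.34 to 13.10 was left out in the same way. The 9 h array was the dimmest of the 4. Its upper quartile intensity was 397 against 627, 553 and 588 at 0, 3 and 6 h, and it had 10374 detected probes against 10878 to 10915, while the median signal of undetected probes lay between 141 and 149 on all 4 arrays. After normalization the median difference between 9 and 6 h lay between −0.013 and 0.003 on the log2 scale in each of 4 equal classes of signal. Quantile normalization gives every array the same distribution and so holds these medians near 0. They do not show that single probes on the dim array are comparable. All values below are normalized log2 signals. The root mean square difference between 9 and 6 h was 0.24, below that between any other pair of the 4 arrays (0.31 to 0.45). The cells carried the keratins of this epithelial line, with KRT5 at 14.96 to 15.17, KRT18 at 13.91 to 14.23 and EPCAM at 12.11 to 12.41 over the 4 arrays, whereas KRT14 was detected on 1 and TP63 on 2 of them. Of markers of other cell types, 3 of 10 fibroblast genes and 5 of 10 leukocyte and endothelial genes were kept, and none of these was apart between the pairs. The kept ERBB2 probe lay near the limit of detection at 7.94, 7.96, 7.97 and 7.95, and the other ERBB2 probe was detected on none of the 4 arrays, so the transgene could not be checked here.

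By the moderated test in limma with Benjamini-Hochberg adjustment, 3 probes rose (0.0269% of the 11171) and 6 fell (0.0537%) at an adjusted p under 0.05. At an unadjusted p under 0.05 there were 1123 higher and 1095 lower probes, and at an adjusted p under 0.1 there were 249 higher and 196 lower. With 2 arrays against 2, an exact two-sided permutation test of a single gene cannot go below 0.333, and the fit had 2 residual degrees of freedom (8.08 with those borrowed across probes). In fits that pooled the spread over 8 or 16 arrays, all 9 stayed past the test among 1753 and 3266. Later arrays step less than the early ones, so a pooled spread would be too small for the early arrays and these counts too high. Without the mean-variance trend none passed (1833 at an unadjusted p under 0.05). Differences were therefore also described without a test. A probe is called apart when both its 6 and 9 h signals lay beyond both its 0 and 3 h signals and the means differed by 1.7-fold or more, which is 0.77 on the log2 scale. By this description 285 probes were higher (2.55%) and 243 lower (2.18%) at 6 and 9 h. "Rose" and "fell" are kept here for the 9 probes past the test, and all other differences are given as values.

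**Figure D1:**
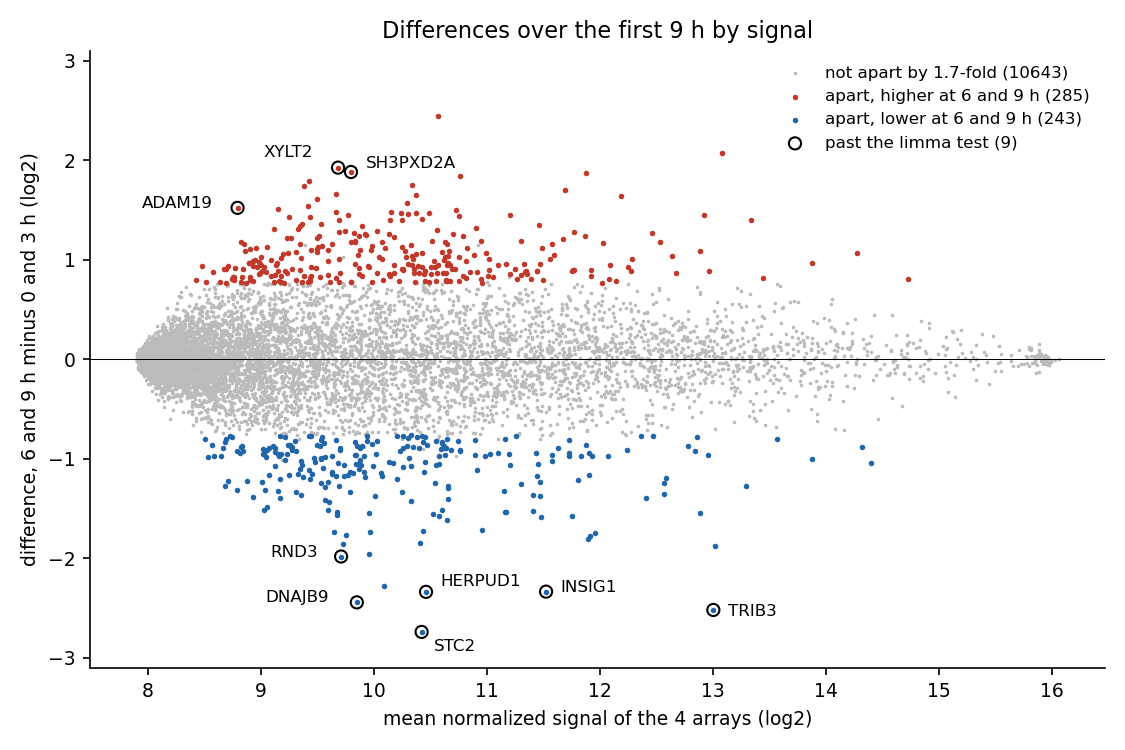
Difference between the mean of 6 and 9 h and the mean of 0 and 3 h (log2, vertical) against the mean signal of the 4 arrays (log2, horizontal) for the 11171 kept probes, 1 point per probe. Red and blue points are the 285 higher and 243 lower probes that were apart by 1.7-fold, and rings mark the 9 probes past the limma test, of which the 6 lower ones reach further from 0 than the 3 higher ones.

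The 6 probes that fell belong to STC2, TRIB3, DNAJB9, HERPUD1, INSIG1 and RND3. STC2, a secreted glycoprotein of the stress response, had the largest difference: its signal was 11.97 and 11.61 at 0 and 3 h and 8.94 and 9.17 at 6 and 9 h, a fall of 2.74 ± 0.24 (SE) on the log2 scale or 6.68-fold (adjusted p = 0.0185 in limma). TRIB3, a pseudokinase induced through ATF4, went from 14.42 and 14.10 to 12.11 and 11.37 (−2.52 ± 0.26, limma adjusted p = 0.0284). DNAJB9, a co-chaperone of the endoplasmic reticulum, went from 10.97 and 11.17 to 8.87 and 8.38 (−2.44 ± 0.26, limma adjusted p = 0.0284). HERPUD1, which takes part in the degradation of misfolded proteins at the endoplasmic reticulum, went from 11.60 and 11.66 to 9.53 and 9.06 (−2.34 ± 0.25, limma adjusted p = 0.0284). INSIG1, which holds the SREBP complex in the endoplasmic reticulum and is itself a target of SREBP, went from 12.71 and 12.68 to 10.42 and 10.29 (−2.33 ± 0.21, limma adjusted p = 0.0185). In each of these 5 genes the 0 and 3 h signals lay close together, and the step from 3 to 6 h was the largest of the 3 steps. A dimmer second probe of INSIG1 went from 8.98 and 8.86 to 8.75 and 8.66, the same order with a difference of −0.22 (adjusted p = 0.56). RND3, a small GTPase that opposes actin stress fibers, went from 10.80 and 10.60 to 8.90 and 8.54 (−1.98 ± 0.24, limma adjusted p = 0.0483).

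The 3 probes that rose belong to XYLT2, SH3PXD2A and ADAM19. XYLT2, a xylosyltransferase that starts glycosaminoglycan chains on proteoglycans, went from 8.72 and 8.73 at 0 and 3 h to 10.47 and 10.83 at 6 and 9 h (1.93 ± 0.23, limma adjusted p = 0.0483). SH3PXD2A, a scaffold of invadopodia, went from 8.97 and 8.75 to 10.61 and 10.87 (1.88 ± 0.23, limma adjusted p = 0.0489). ADAM19, a membrane-anchored metalloprotease, was at 8.0 and 8.07, near the limit of detection, and reached 9.50 and 9.61 (1.52 ± 0.18, limma adjusted p = 0.0446). On the 4 arrays of 12 to 21 h SH3PXD2A lay at 10.70 to 11.00, around its 9 h signal, and XYLT2 at 10.21 to 10.41, below its 6 and 9 h signals and nearer to them than to its early ones. ADAM19 lay at 8.31 to 8.54, nearer to its early signals. Of the 6 that fell, TRIB3 (11.24 to 11.48), INSIG1 (10.14 to 10.66), DNAJB9 (8.64 to 8.73) and RND3 (8.40 to 8.65) stayed near their 9 h signals at 12 to 21 h, while STC2 (9.45 to 9.85) and HERPUD1 (9.81 to 10.05) lay between their early and their 9 h signals.

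**Figure D2:**
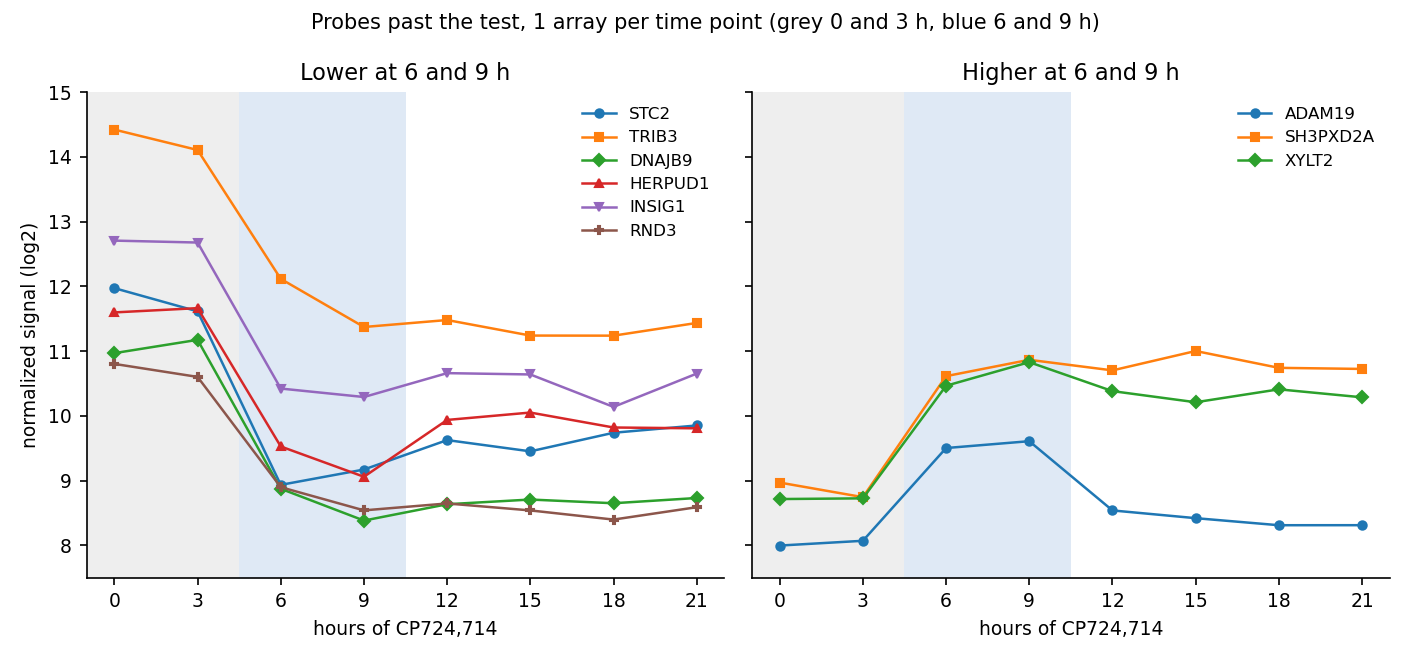
Normalized log2 signal (vertical) of the 9 probes past the test against hours of CP724,714 (horizontal), 1 array per point, with the 0 and 3 h arrays on grey, the 6 and 9 h arrays on blue and the 12 to 21 h arrays on white. All 9 lines break between 3 and 6 h, and ADAM19 is the one that turns back most, from 9.61 at 9 h to 8.31 to 8.54 at 12 to 21 h.

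Among the 528 probes that were apart, the step from 3 to 6 h was the largest of the 3 steps for 397, against 67 for the step from 0 to 3 h and 64 for that from 6 to 9 h. The description itself sets 6 and 9 h against 0 and 3 h and so favors a large step from 3 to 6 h, and this count is a description only. The 6 h array alone lay 1.7-fold or more from the mean of 0 and 3 h for 334 of them (174 higher and 160 lower), so for these the size did not rest on the dim 9 h array. When the 6 h array alone was set against 0 and 3 h, 220 probes were higher and 179 lower by the same description, of which 334 were among the 528. On that setting 6 of the 17 ATF4 response genes, 8 of the 23 p53 targets, 4 of the 22 sterol synthesis enzymes, 4 of the 14 genes of sterol uptake and control, 7 of the 30 G2/M genes, 6 of the 18 NF-kB targets and 3 of the 20 unfolded protein response genes were apart and lower, against 3.69% of all genes apart in either direction. For 439 of the 528 the 9 h signal lay further out than the 6 h signal. The probes were detected on all 4 arrays except TNFRSF10B, BIRC3, FBXO32 and IL1R2, which were all lower at 6 and 9 h and missed detection on 1 array of that pair, although their signals there were between 8.63 and 10.37. FBXO32 and IL1R2 also missed it on 1 array of the 0 and 3 h pair. None of the 448 probes that were detected on both arrays of one pair and on neither of the other was apart, and the dimmest of 4 equal classes of signal held none of the 528. Dim probes lie close to the limit of detection and the offset pulls their differences toward 0. Both results follow largely from that and are not a test. At 12 to 21 h all 4 signals still lay beyond both the 0 and the 3 h signal for 230 of the 285 higher and 197 of the 243 lower probes. Because the 6 and 9 h signals chose these probes, this is a description of where they lay later and not a test.

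A few genes of the unfolded protein response had large differences and most had smaller ones. Of 20 genes on the list all were kept, 15 were lower and 5 higher, and 4 were apart (against 4.91% of all genes kept), all of them lower. The median of the list was −0.17 against −0.001 over all 10556 genes. Beside DNAJB9 and HERPUD1, the 4 included XBP1, the transcription factor of the pathway, at 11.08 and 11.58 and then 9.96 and 9.00 (−1.85 ± 0.35, adjusted p = 0.065). HSPA5, the main chaperone of the endoplasmic reticulum, was at 10.65, 11.37, 10.47 and 9.29 (−1.13 ± 0.41, adjusted p = 0.19). HSPA5 peaked at 3 h and its 6 h signal lay only 0.18 below its 0 h signal, so its difference rests largely on 9 h. Other chaperones and folding enzymes had smaller differences: CANX differed by −0.53, CRELD2 by −0.50, HSP90B1 by −0.24, PDIA4 by −0.37, CALR by 0.07 and PDIA6 by 0.03, and SDF2L1 was the highest of the list at 0.46, none of them past the test. Without the 9 h array the median of the list was −0.08, and DNAJB9, HERPUD1 and XBP1 were apart while HSPA5 was not. In 3 of the 4 genes that were apart, the bases before the gene start hold a known element of this response. The ER stress response element ERSE was searched as CCAAT and CCACG with 9 free bases between them, and its shorter form ERSE-II as ATTGG and CCACG with 1 free base between them, on both strands of windows running from 250 bases before to 50 after each RefSeq gene start (GRCh38.p14). The 150 bases before the start of these 3 genes are shown 5′ to 3′ on the strand of the gene, with the element in capitals. They lie at chr16:56931992-56932141 (plus strand) for HERPUD1, chr22:28800570-28800719 (minus strand) for XBP1 and chr9:125241344-125241493 (minus strand) for HSPA5.
HERPUD1: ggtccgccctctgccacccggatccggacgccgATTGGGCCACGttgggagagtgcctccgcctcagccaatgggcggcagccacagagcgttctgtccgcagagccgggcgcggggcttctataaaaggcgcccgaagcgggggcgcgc
XBP1: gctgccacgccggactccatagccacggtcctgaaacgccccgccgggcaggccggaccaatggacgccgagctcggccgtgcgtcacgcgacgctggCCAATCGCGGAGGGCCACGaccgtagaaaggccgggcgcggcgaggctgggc
HSPA5: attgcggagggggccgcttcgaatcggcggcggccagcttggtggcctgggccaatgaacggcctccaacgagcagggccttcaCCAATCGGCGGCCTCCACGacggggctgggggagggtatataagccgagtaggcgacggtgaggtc

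The element begins 117, 52 and 66 bases before the start of HERPUD1, XBP1 and HSPA5. HERPUD1 holds the ERSE-II form, which is found in 0.0541% of the 35116 windows, and XBP1 and HSPA5 hold ERSE, found in 0.0769%. The element was not limited to members that were apart, since 7 of the 16 genes of the list that were not apart hold one form or the other as well, namely CALR, CANX, CRELD2, HSP90B1, HYOU1, PDIA6 and SDF2L1. The same search for a sterol regulatory element, TCACNCCAC (1.13% of windows), found none in the 4 sterol synthesis and 3 sterol uptake and control genes that were apart and have a window, and one for the ATF4 element TGATGNAA (3.62%) found it in 1 of 7 such ATF4 response genes. A match of letters is a description and does not show that a factor binds there, and the lack of one says only that these letters are not in the window.

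Genes of the ATF4 response were lower at 6 and 9 h throughout. All 17 kept genes of the list had a lower mean, with a median of −0.74, and 8 of them were apart (47.1%, against 4.91% of all genes kept). Beside STC2 and TRIB3, CEBPG, a partner of ATF4 on DNA, was at 11.13, 10.74, 9.27 and 8.69 (−1.96 ± 0.28, adjusted p = 0.062). GPT2, a mitochondrial alanine aminotransferase, was at 10.80, 10.11, 8.95 and 8.82 (−1.57 ± 0.28, adjusted p = 0.065). DDIT3, the transcription factor CHOP, was already lower at 3 h, with 10.30, 8.95, 8.29 and 8.19 (−1.38 ± 0.39, adjusted p = 0.12). PPP1R15A, which directs the phosphatase that resets eIF2α, peaked at 3 h with 12.92, 13.58, 12.13 and 11.65 (−1.36 ± 0.27, adjusted p = 0.068). ATF4 itself differed less than these genes, at 14.01, 13.92, 13.31 and 13.04 (−0.80 ± 0.16, adjusted p = 0.069). At the other end of the list, DDIT4 and CEBPB differed by −0.17 and −0.02. ASNS, asparagine synthetase, was at 13.64, 13.56, 13.23 and 12.83 (−0.57 ± 0.18, adjusted p = 0.14), and at 12 to 21 h it lay far lower, at 10.40 to 11.25. Without the 9 h array the median of the list was −0.40.

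Enzymes and transporters that supply amino acids to protein synthesis were lower to differing degrees. All 11 kept genes of serine and one-carbon metabolism had a lower mean (median −0.66) and 3 were apart (27.3%, against 4.91% of all genes kept). PSPH, the last enzyme of serine synthesis, was at 10.10, 9.45, 8.62 and 8.51 (−1.21 ± 0.26, adjusted p = 0.080). MTHFD2, a mitochondrial folate enzyme, was at 12.63, 12.34, 11.83 and 10.81 (−1.16 ± 0.33, adjusted p = 0.12). PSAT1, the middle enzyme of serine synthesis, was at 13.20, 13.31, 12.63 and 12.32 (−0.78 ± 0.18, adjusted p = 0.088), and it lay much lower at 12 to 21 h (10.56 to 10.85). PHGDH, the first enzyme of serine synthesis, was at 13.35, 13.46, 13.12 and 13.01, a difference of −0.33 ± 0.16 (adjusted p = 0.29) that was not past the test. Its 6 and 9 h signals lay below its 0 and 3 h signals, by less than 1.7-fold, and at 12 to 21 h it lay at 11.92 to 12.24. The 3 enzymes of the serine branch thus differed in time: PSPH at 6 h was already at or below its 12 to 21 h range (8.65 to 8.94), whereas PSAT1 and PHGDH at 9 h were still above theirs. Without the 0 h array the median of the list was −0.39.

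Of 16 kept aminoacyl-tRNA synthetases, which charge tRNAs, 12 were lower and 4 higher, with a median of −0.39, and 4 were apart (25.0%, against 4.91% of all genes kept). Without the 9 h array 2 of the 16 were apart (12.5%, against 3.69%). AARS1 had the largest difference, at 13.18, 13.03, 12.03 and 11.40 (−1.39 ± 0.24, adjusted p = 0.065). IARS1 (−1.06 ± 0.24), TARS1 (−0.94 ± 0.29) and YARS1 (−0.87 ± 0.22) followed, at adjusted p of 0.085, 0.14 and 0.098. The synthetases did not move as one family, since RARS1, HARS1 and FARSA differed by 0.11, 0.20 and 0.29. Of 11 kept amino acid transporters 10 were lower, with a median of −0.24, and 3 were apart (27.3%, against 4.91% of all genes kept). Without the 9 h array 2 of the 11 were apart (18.2%, against 3.69%) and the median was −0.07. SLC1A5, the glutamine transporter, was at 11.40, 11.33, 10.34 and 9.35 (−1.52 ± 0.33, adjusted p = 0.079). SLC7A1, a carrier of cationic amino acids, was at 11.90, 11.74, 10.73 and 10.25 (−1.33 ± 0.25, adjusted p = 0.065), and SLC6A9, a glycine transporter, differed by −0.81 ± 0.23 (adjusted p = 0.12). A second SLC6A9 probe, near the limit of detection, differed by −0.03. Of 19 kept genes of polyamine and nucleotide synthesis 13 were lower and 6 higher, with a median of −0.05, and 2 were apart. These were AMD1 and ODC1, which together control polyamine synthesis, at −1.29 ± 0.23 and −0.97 ± 0.26 (adjusted p = 0.065 and 0.11). A dimmer second probe of AMD1 differed by −0.32 (adjusted p = 0.22). Without the 9 h array 1 of the 19 was apart.

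Genes of sterol synthesis were lower at 6 and 9 h, to differing degrees. Of 22 kept enzymes 20 had a lower mean and 2 a higher one, with a median of −0.61. Of the 22, 5 were apart (22.7%, against 4.91% of all genes kept). HMGCS1, which makes HMG-CoA, was at 13.77, 14.14, 12.75 and 11.41 (−1.88 ± 0.38, adjusted p = 0.072). IDI1, the isomerase of the isoprenoid unit, was at 10.67, 10.95, 9.86 and 9.35 (−1.20 ± 0.26, adjusted p = 0.080). TM7SF2, a sterol reductase, had its break between 0 and 3 h, at 11.10, 9.43, 9.16 and 9.24 (−1.06 ± 0.47, adjusted p = 0.26). LSS, which closes the sterol rings, stepped down at each time, at 12.63, 11.99, 11.83 and 11.07 (−0.86 ± 0.31, adjusted p = 0.19). The enzymes that were not apart differed by −0.97 (MVD) to 0.44 (LBR), and GGPS1, which makes the side branch to prenylated proteins, by 0.01. SQLE, the epoxidase that follows squalene, was highest at 3 h, with 9.71, 10.56, 9.91 and 9.52, and its pairs overlapped.

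The control and uptake side of the pathway held INSIG1, described above, as its one member past the test. Of 14 kept genes 11 were lower, with a median of −0.37, and 4 were apart (28.6%, against 4.91% of all genes kept). SREBF1, the SREBP gene most tied to fatty acid synthesis, was at 10.90, 9.97, 9.01 and 8.80 (−1.53 ± 0.32, adjusted p = 0.076), while its relative SREBF2 was at 10.62, 10.72, 10.79 and 10.35 (−0.10 ± 0.24). TMEM97, a regulator of cholesterol transport, differed by −0.97 ± 0.31 (adjusted p = 0.14). Of 15 kept genes of fatty acid synthesis 12 were lower (median −0.46) and 2 were apart (13.3%). LPIN1, a phosphatidate phosphatase and coregulator, was at 13.63, 13.68, 12.68 and 11.56 (−1.54 ± 0.32, adjusted p = 0.076). ACACA, acetyl-CoA carboxylase, was at 10.83, 10.56, 9.86 and 9.68 (−0.92 ± 0.23, adjusted p = 0.10), and its second probe, near the limit of detection, differed by −0.02.

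**Figure D3:**
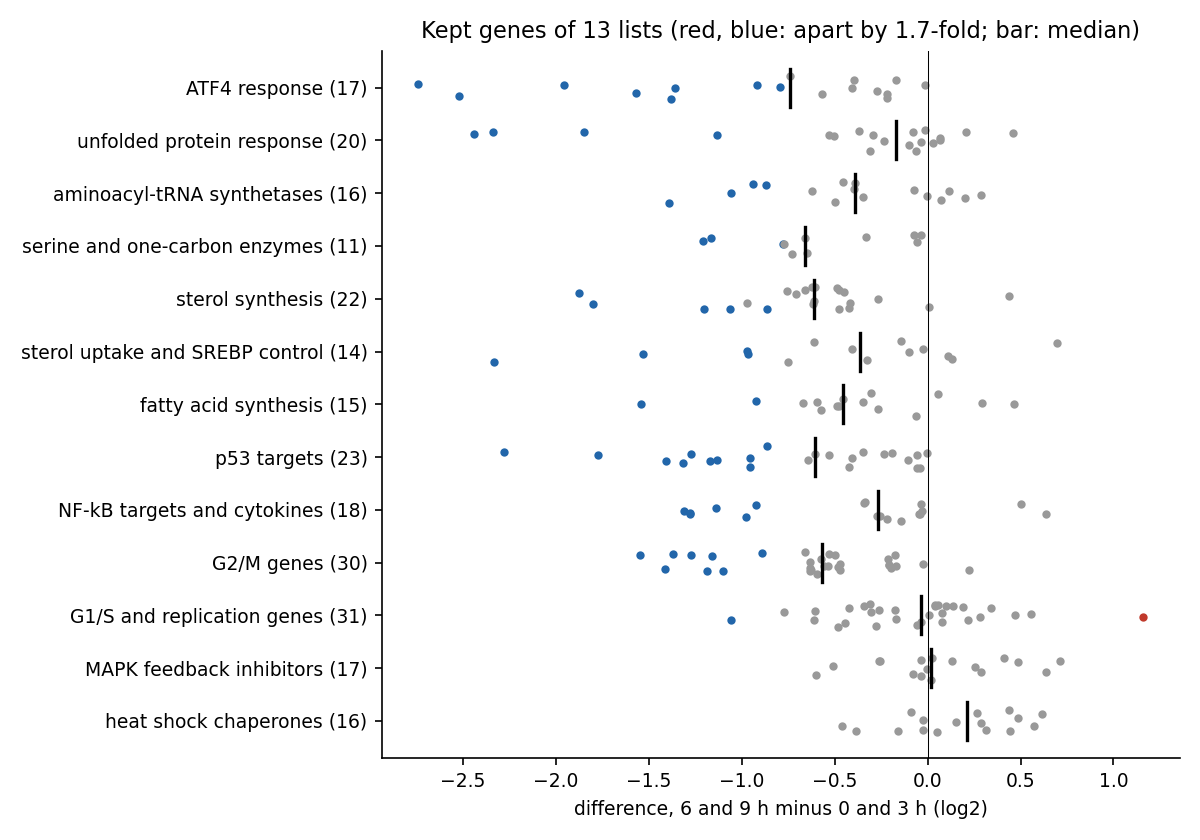
Difference between the mean of 6 and 9 h and the mean of 0 and 3 h (log2, horizontal) for the kept genes of 13 lists (rows, number of genes in parentheses), 1 point per gene, blue where lower and red where higher by the 1.7-fold description, with a bar at each list's median. The medians run from −0.74 (ATF4 response) to 0.21 (heat shock chaperones), and in the unfolded protein response 4 genes are apart while the other 16 lie between −0.53 and 0.46.

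Genes known as p53 targets also were lower throughout. All 23 kept genes had a lower mean, with a median of −0.60. Of the 23, 10 were apart (43.5%, against 4.91% of all genes kept), none past the test. GDF15, a secreted stress cytokine, was at 12.01, 10.45, 9.24 and 8.66 (−2.28 ± 0.47, adjusted p = 0.073), so it was on its way down at 3 h. AEN, a nuclease of apoptosis, was at 12.59, 13.00, 11.40 and 10.64 (−1.77 ± 0.29, adjusted p = 0.065). TNFRSF10B, a death receptor for TRAIL, was at 11.39, 11.32, 10.13 and 9.76 (−1.41 ± 0.24, adjusted p = 0.065). SESN1, a sestrin that restrains mTORC1, was at 9.82, 9.58, 8.36 and 8.40 (−1.32 ± 0.21, adjusted p = 0.065). CDKN1A, the CDK inhibitor p21, was at 13.95, 13.91, 12.84 and 12.48 (−1.27 ± 0.17, adjusted p = 0.060). Several of these genes are known targets of other pathways as well, GDF15 and TNFRSF10B of the ATF4 and CHOP response and CDKN1A and SESN1 of FOXO factors, and the list shares 1 gene with the ATF4 list and 3 with the FOXO list. Other well known targets differed little, TP53I3 by −0.11, ZMAT3 by −0.06, BAX by −0.04 and MDM2, whose probe was dim, by −0.06.

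The G2/M list had a different course, with the larger median step already between 0 and 3 h. Of 30 kept genes of G2 and mitosis 29 had a lower mean at 6 and 9 h, with a median of −0.57. Of these 30 genes, 8 were apart (26.7%, against 4.91% of all genes kept), none past the test. Their median step was −0.64 from 0 to 3 h, −0.20 from 3 to 6 h and −0.04 from 6 to 9 h, and without the 0 h array their median difference was −0.21. CENPA, the centromere histone, had its largest step from 0 to 3 h, at 11.47, 10.00, 9.30 and 9.07 (−1.55 ± 0.43, adjusted p = 0.12). CCNB1, cyclin B1, was at 10.66, 9.89, 8.85 and 8.87 (−1.41 ± 0.29, adjusted p = 0.073), and AURKA, a mitotic kinase, at 12.43, 11.89, 10.87 and 10.70 (−1.37 ± 0.25, adjusted p = 0.065). HMMR, a receptor for hyaluronan that peaks in mitosis, was at 10.72, 9.94, 8.97 and 9.15 (−1.27 ± 0.29, adjusted p = 0.085). Unlike the median of the list, CCNB1, AURKA and HMMR each had their largest step from 3 to 6 h. At 12 to 21 h these genes lay above their 6 and 9 h signals, with CENPA at 11.07 to 11.57, CCNB1 at 10.29 to 11.29, AURKA at 11.66 to 12.39 and HMMR at 10.69 to 11.62. The ranges of CENPA, CCNB1 and HMMR included their 0 h signals, with CCNB1 and HMMR reaching well above them, while AURKA stayed below its own. In RNA from a whole culture, fewer cells in a phase and less RNA per cell cannot be told apart. Of 31 kept genes of G1/S and replication, 15 were higher and 16 lower with a median of −0.03, but that balance joined a median step of −0.77 from 0 to 3 h with one of 0.53 from 6 to 9 h. TK1, thymidine kinase, was at 11.88, 10.29, 10.19 and 9.85 and had not turned by 9 h, whereas CCNA2, cyclin A2 of the G2/M list, was at 10.42, 9.13, 9.45 and 10.06. Of the 31 genes of the G1/S list 2 were apart (6.45%, near the 4.91% of all genes kept), TK1 lower and UNG higher. UNG, a uracil glycosylase, was at 8.80, 8.74, 9.89 and 9.97 (1.16 ± 0.21, adjusted p = 0.065), with a second probe near the limit of detection at 0.00.

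**Figure D4:**
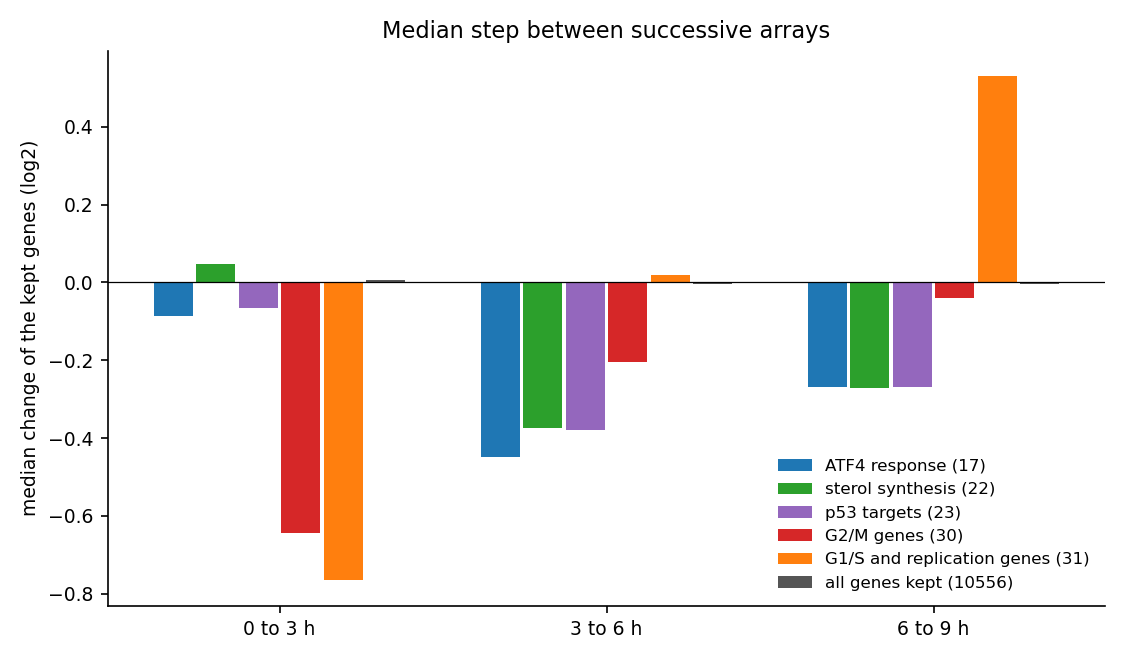
Median change in log2 signal (vertical) of the kept genes of 5 lists and of all 10556 genes, for the steps from 0 to 3 h, 3 to 6 h and 6 to 9 h (horizontal), with 1 array at each end of a step and the number of genes in parentheses. The G2/M and G1/S lists have their largest drop in the first step (−0.64 and −0.77), while the ATF4, sterol synthesis and p53 lists have theirs between 3 and 6 h (−0.45, −0.37 and −0.38).

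Of the kept ligands, receptors and feedback genes nearest to HER2 only ERBB3 was apart, and several of the others had dim probes. At the 4.91% of all genes kept, few members of lists this short would be apart, so the count says little about these genes. ERBB3, the kinase-impaired partner receptor of HER2, was the one of 13 kept ERBB receptor and regulator genes that was apart (7.69%, against 4.91% of all genes kept). It was at 8.98, 10.29, 11.36 and 10.85 (1.47 ± 0.41, adjusted p = 0.12), and a second, dim probe of it differed by −0.07. EGFR was at 9.79, 10.10, 10.10 and 10.48 (0.34 ± 0.25), with 2 dimmer probes at 0.14 and 0.13. ERRFI1, an inhibitor of the ERBB kinases, was at 11.76, 12.42, 12.72 and 12.44 (0.49 ± 0.25), and CBLB, a ubiquitin ligase that takes receptors down, was highest at 3 h with 8.73, 9.77, 9.04 and 8.27 (−0.60 ± 0.37). CBL, GRB7, LRIG1, LRIG3, NRG1, RNF41, SOCS4 and SOCS5 differed by −0.19 to 0.05. Of these, GRB7, LRIG1, NRG1, RNF41 and SOCS5 lay between 7.96 and 8.23 on the 4 arrays. That is near the limit of detection, where the offset pulls differences toward 0. Of the ligands, 4 of 8 were kept: HBEGF differed by −0.26 ± 0.11, NRG1 by −0.11 ± 0.06, TGFA by −0.06 ± 0.14 and EPGN by 0.05 ± 0.05. None of the 17 kept MAPK feedback inhibitors was apart (against 4.91% of all genes kept), 9 being higher and 8 lower with differences from −0.60 to 0.71. Of 22 kept immediate early genes 5 were apart (22.7%), 1 higher and 4 lower. FOS was at 10.61, 10.66, 9.41 and 9.57 (−1.15 ± 0.22, adjusted p = 0.068), JUND differed by −1.05 ± 0.20 and KLF4 by −0.95 ± 0.24 (adjusted p = 0.065 and 0.10). MYC counted as apart and higher only because its 3 h signal was low: it was at 12.31, 9.96, 12.47 and 12.35, and its 9 h signal lay 0.04 above its 0 h signal.

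Inflammatory, TGF-beta and clock genes held further lower members. Of 18 kept NF-kB targets and cytokines 16 were lower, with a median of −0.27, and 6 were apart (33.3%). TNFAIP3, a brake on NF-kB, was at 9.78, 9.13, 8.26 and 8.02 (−1.31 ± 0.24, adjusted p = 0.065), and BIRC3, an inhibitor of apoptosis, at 10.54, 9.88, 9.24 and 8.63 (−1.28 ± 0.31, adjusted p = 0.096). The chemokines CXCL8 (10.31, 8.34, 8.13 and 7.97) and CXCL1 (11.09, 9.31, 9.23 and 8.90) had most of their drop between 0 and 3 h. SOD2, a mitochondrial antioxidant enzyme on the same list, was higher by 0.64 ± 0.20. Of 16 kept TGF-beta and ID genes 15 were lower and 3 were apart (18.8%, against 4.91% of all genes kept), led by BAMBI, a decoy receptor, at 13.29, 12.37, 11.53 and 10.64 (−1.75 ± 0.37, adjusted p = 0.077). Of 14 kept clock genes 12 were lower and 4 were apart (28.6%, against 4.91% of all genes kept), and without the 9 h array 2 were (14.3%, against 3.69%). BHLHE40 differed by −1.54 ± 0.38, NFIL3 by −1.38 ± 0.23, BMAL1 by −1.07 ± 0.27 and PER2 by −0.86 ± 0.33 (adjusted p = 0.099, 0.065, 0.098 and 0.21). Of 19 kept NRF2 genes 3 were apart (15.8%), 2 higher and 1 lower. HMOX1, the heme oxygenase, was at 9.36, 10.23, 8.54 and 8.09 (−1.48 ± 0.32, adjusted p = 0.077), while GCLC and TXNRD1 on the same NRF2 list were both higher by 0.92 (SE 0.24 and 0.33).

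The largest higher signals belonged to genes from no single list. ANG, the ribonuclease angiogenin, was at 8.67, 10.02, 11.68 and 11.89, a difference of 2.44 ± 0.40 or 5.43-fold (adjusted p = 0.065). RNASE4, a neighboring ribonuclease, was at 8.24, 8.79, 10.14 and 10.38 (1.75 ± 0.26, adjusted p = 0.065), with a second probe at 0.73 (adjusted p = 0.068). Both genes are listed by RefSeq with the same 2 start windows on chromosome 14, at chr14:20684310-20684609 and chr14:20688514-20688813 (GRCh38.p14, plus strand), and ANG has 1 window more. Both were lower again at 12 to 21 h, with ANG at 9.90 to 10.20 and RNASE4 at 8.87 to 9.10. RGCC, a regulator of the cell cycle, was at 11.17, 12.92, 14.34 and 13.89 (2.07 ± 0.48, adjusted p = 0.085). SRSF5, a splicing factor, was at 10.59, 11.30, 12.49 and 13.15 (1.87 ± 0.31, adjusted p = 0.065). TEAD2, a DNA-binding partner of YAP, was at 9.63, 10.05, 11.50 and 11.88 (1.85 ± 0.26, adjusted p = 0.060). RGS19 (1.79 ± 0.23), a regulator of G protein signaling, had an adjusted p of 0.053 and YPEL3 (1.75 ± 0.32) one of 0.065. F3, tissue factor, was at 11.23, 10.46, 12.35 and 12.74 (3.25-fold higher, adjusted p = 0.065), and PRR7 differed by 1.66 ± 0.23 (adjusted p = 0.060). BCKDK, the kinase that restrains branched-chain amino acid breakdown, was at 10.21, 8.89, 10.65 and 11.75 (1.65 ± 0.48, adjusted p = 0.13), so its 0 and 3 h signals lay further apart than its 0 and 6 h signals. PRR7, like ANG and RNASE4, was lower again at 12 to 21 h (8.86 to 9.11), whereas BCKDK stayed high (12.01 to 12.08).

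Epithelial, adhesion and survival genes gave a few more higher members. The shares apart were 9.09% of kept keratins, 11.1% of kept adhesion genes and 7.14% of the kept BCL2 family, against 4.91% of all genes kept. KRT17, a basal keratin, was at 11.47, 12.91, 13.48 and 13.80 (1.45 ± 0.40, adjusted p = 0.12), with its largest step from 0 to 3 h. The integrin ITGA5, of the fibronectin receptor, was at 9.56, 10.57, 11.32 and 10.96 (1.07 ± 0.34), and ITGB4, of the hemidesmosome, at 11.28, 11.67, 11.97 and 12.77 (0.90 ± 0.29), with adjusted p of 0.148 and 0.155. PLAUR, the urokinase receptor, differed by 0.83 ± 0.25 and BCL2L2, a survival member of the BCL2 family, by 1.45 ± 0.29 (adjusted p = 0.13 and 0.070). On the autophagy list, where 3 of 27 kept genes were apart (11.1%), MAP1LC3B (−1.36 ± 0.42) and SQSTM1 (−1.19 ± 0.30) were lower while GABARAPL2 was higher by 0.79 ± 0.19. Of 15 kept vesicle SNAREs 1 was apart (6.67%). This was STX3, a syntaxin of the apical membrane, at 10.44, 11.22, 9.81 and 8.38 (−1.74 ± 0.46, adjusted p = 0.11). VAMP8, a SNARE of endosomes and secretory vesicles, was at 13.11, 12.88, 13.60 and 13.70, higher by 0.65 ± 0.16 (adjusted p = 0.097), which was neither past the test nor 1.7-fold. None of the 16 kept heat shock chaperones of the cytosol and none of the 16 kept hypoxia genes was apart (against 4.91% of all genes kept). Their medians were 0.21 and 0.22.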

How the data were processed

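Total RNA from 16 cultures was labelled and measured on Illumina beadchips (human Ref-8 v2), 1 array per time point. The authors deposited, for each of 20589 probes and each array, the intensity before normalization between arrays and a detection p-value. The deposited detection p-values were used to infer the negative controls. The methods of the study state quantile normalization. Here the background was removed by the neqc method of limma (version 3.58.1, offset 16, in R 4.3.3), and signals were quantile normalized over the 16 arrays and taken to log2. The offset pulls differences of dim probes toward 0.

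Probes detected on at least 2 of the 4 arrays were fitted with lmFit and eBayes (mean-variance trend, 2 groups of 2 arrays) and adjusted by Benjamini-Hochberg. The fold threshold of 1.7 is the size criterion of the study. Named genes were the 12 largest higher and 12 largest lower among probes apart, up to 4 genes apart per list, all kept ERBB receptor, regulator and ligand genes, every probe past the test, and PHGDH and VAMP8. Other members given with values illustrate the range of a list and were chosen after their values were seen. Where a gene had several kept probes, a list used the brightest. The 40 lists, the comparison and its members were chosen with earlier results of these data known. Symbols were brought up to date with a RefSeq table (GRCh38.p14), which matched 15331 probes by symbol and 3576 by synonym, and promoter windows came from RefSeq. The script of the fit was tested on simulated data. Precision is limited by having 4 arrays, and a pair joins successive time points. Nothing says that cultures were replicated, so p-values measure the spread between successive arrays. Alternatives were the background correction, offset, scaling, detection filter, pooled spread, array weights, fold threshold and leaving out each array. A few members of the lists are counted but not reported by name here.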

Additional observations from a re-analysis of the deposited data

How the results depend on the processing

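The count of 9 probes past the test depended on how the spread was estimated. It was 5 with a neqc offset of 50 and with the 4 arrays normalized alone, 2 among probes detected on all 4 arrays, 14 with cyclic loess, 58 without a detection filter, 124 with normexp from the signals alone and 257 with median scaling. It was 0 without the mean-variance trend, 1753 with the spread pooled over 0 to 21 h and 3266 with that over all 16 arrays, and 46 to 1008 when 1 array was left out, which leaves 1 residual degree of freedom and assumes that the lone array varies like the pair. The 528 probes apart became 813 with normexp from the signals alone, 250 at 2-fold, 969 at 1.5-fold and 399 (without 9 h) to 855 (without 6 h) when 1 array was left out. Median differences of gene lists were recomputed only with median scaling, with cyclic loess, for probes detected on all 4 arrays and without 1 array. Under these alternatives those of 8 lists were negative. The 8 were picked from lists that had been chosen with earlier results of these data known. They were ATF4 response, sterol synthesis, sterol uptake and control, serine and one-carbon genes, aminoacyl-tRNA synthetases, unfolded protein response, G2/M and p53 targets. The median of serine and one-carbon genes was −0.77 with median scaling and −0.71 with cyclic loess. It was −0.73 for probes detected on all 4 arrays and −0.72 to −0.39 without 1 array. That of G2/M genes was −0.53 with cyclic loess and −0.89 to −0.21 without 1 array, and that of p53 targets −0.80 to −0.45 without 1 array. Many named genes were chosen because they were apart, and leaving out 1 array cannot reverse the direction of such a gene. The next count is therefore partly fixed in advance. Of 1328 differences of named genes under the alternatives, 1316 kept their direction. The 12 that did not were near 0: GRB7 was 0.013 with median scaling, 0.0082 with cyclic loess and −0.0756 to 0.0692 without 1 array, and without 1 array ERBB2 was −0.0086 to 0.0137, LRIG1 −0.0056 to 0.0407, RNF41 −0.0145 to 0.0577 and CBL −0.0818 to 0.183. The causes were not tested. No paired analysis was possible because the labels pair no cultures and give every time a single array. The counts of list members without the 9 h array were added after seeing the data.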

Other observations

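The shares of glucose and fuel genes that were apart were near the 4.91% of all genes kept. Of 22 kept genes of glycolysis and glucose transport 1 was apart (4.55%), PFKP, a phosphofructokinase, at 11.53, 11.83, 12.32 and 12.65 at 0, 3, 6 and 9 h (0.80 ± 0.22 on the log2 scale, limma adjusted p = 0.11), and none was without the 9 h array. Of 15 kept genes of pyruvate dehydrogenase kinases and fatty acid oxidation 1 was apart (6.67%), CPT2, which imports acyl groups into mitochondria, at 8.94, 8.39, 9.16 and 9.86. Of 32 kept ribosome biogenesis genes 21 were lower and 11 higher with a median of −0.07, and PPAN was the one apart, higher by 0.87 ± 0.22.

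Some lists held members in both directions. On the glucocorticoid-responsive list 3 of 16 kept genes were apart (18.8%, against 4.91% of all genes kept). KLF9 differed by −1.03 ± 0.26 and NFKBIA by −0.92 ± 0.19, while ANGPTL4, a secreted inhibitor of lipoprotein lipase, was at 7.99, 8.04, 9.00 and 8.91 (0.94 ± 0.12, limma adjusted p = 0.053). KLF9 lay at 12.01 to 12.39 at 12 to 21 h, close to its 0 and 3 h signals (11.82 and 12.35). On the interferon list GBP2, a guanylate-binding protein, was at 8.14, 8.72, 9.18 and 9.68, while the transcription factor IRF1 was at 10.37, 9.69, 9.03 and 9.05. Of 17 kept squamous differentiation genes 1 was apart (5.88%, against 4.91% of all genes kept), ELF3, lower by 0.77 ± 0.29. The 8 kept metallothioneins held none apart, and at 4.91% few would be apart in so short a list.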
